A study of Mus musculus with 21 samples.

Results

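Androgenetic haploid embryonic stem (ahES) cells were compared with the diploid embryonic stem cell line R1 on 12 of the 21 Affymetrix mouse arrays of the series, selected by cell line. The ahES cells had 9 arrays, 3 for each of the lines AH129-5, AH129-N1 and AH129-NC1, and R1 had 3. All 4 lines had the 129 Sv background and were grown in N2B27 medium with 2i and LIF, and no other allele or agent was given. The ahES cells had been sorted by FACS as haploid cells in G0/G1, whereas no sort was stated for R1. The 3 arrays of a line were labelled as biological replicates, without a word on separate cultures, so p-values measure the spread between these samples. The diploid side is a single line, so ploidy, parental origin, the sort and the line R1 itself cannot be told apart.

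Cells of an androgenetic haploid line hold 1 copy of each chromosome, inherited from the father, and so have no maternal imprints. Mouse ES cells self-renew under 2i and LIF, in which inhibitors of MEK and GSK3 act together with a STAT3-activating cytokine. R1 is widely used as a male line. A male diploid cell has a single X beside paired autosomes, and a haploid cell with an X has that X beside unpaired autosomes. Array scaling sets the overall signal of each array to the same level, so RNA per cell was not measured.

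All 12 arrays carried the markers of naive ES cells at high level. Levels are log2 of the MAS5 signal plus an offset, written here as log2 levels, and differences are ahES minus R1 on this scale with the standard error (SE). A gene passed at an adjusted p under 0.05 in limma, in which arrays of a line formed a random block, and a change of at least 2-fold. Pou5f1 averaged 13.6 ± 0.09 in ahES (SD, n = 9) and 13.6 ± 0.03 in R1 (n = 3), a difference of 0.02 ± 0.11 (adjusted p = 0.950). Nanog differed by -0.06 ± 0.12 and Sox2 by -0.06 ± 0.18. None of the 10 core pluripotency genes passed in limma, with a median difference of -0.07, and 1 was higher and none lower at an unadjusted p under 0.05. Over all 12671 genes tested, 1401 were higher and 1281 lower at that p. Within a line, arrays correlated at 0.985 to 0.987 across genes. The mean correlation was 0.966 to 0.973 between ahES lines, and 0.943 for AH129-5, 0.952 for AH129-N1 and 0.955 for AH129-NC1 against R1, over 9 pairs of arrays each. Genes are not independent replicates in these values. The 3' minus 5' log2 signal of the Actb control ran from 0.448 to 0.622 in ahES arrays and from 0.518 to 0.635 in R1 arrays.

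Of 12671 genes tested, 504 passed (3.98%), of which 354 were higher (2.79%) and 150 lower (1.18%) in ahES. In 503 of the 504 the ranges over the arrays of both sides did not overlap, against 27% of all genes tested. The median difference over all genes was -0.03, and 46.6% of genes lay above 0. In 47 of the 354 higher genes the R1 mean did not exceed the average 40th percentile of the R1 arrays. The ahES mean did not exceed that of the ahES arrays in 5 of the 150 lower genes. The filter on low values, described below, may favour positive differences among genes of low level. With 1 mean per line in place of the block, 215 genes passed (169 higher and 46 lower) and 205 of them were among the 504. Without the block, 996 passed (623 higher and 373 lower), including all 504. Without AH129-5, 398 were higher and 257 lower. Set against R1 on its own by the spread between arrays, AH129-5 differed in 1406 genes (11.1%), with 7.27% of all genes higher and 3.83% lower. AH129-N1 differed in 1216 genes (9.6%), with 4.93% of all genes higher and 4.66% lower. AH129-NC1 differed in 1055 genes (8.33%), with 4.85% higher and 3.47% lower. These 3 comparisons share the R1 arrays.

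The largest rise was that of Gm364, an X-linked gene on the list of MAGE and Rhox families described below, whose role cannot be stated here. Its log2 level ran from 13.5 to 14.1 in ahES with a median of 13.9, against 7.16, 6.43 and 6.92 in R1. It was 130-fold higher (log2 difference 7.03 ± 0.30, adjusted p = 6.46e-09), and no ahES array came near an R1 array. Magea5, of the X-linked MAGE family of testis and tumour antigens, ran from 10.7 to 11.9 with a median of 11.2 in ahES, against 5.19, 5.43 and 5.51 in R1. In R1 it was near background, meaning that its mean did not exceed the average 40th percentile of the R1 arrays, and Magea5 was at least 52.4-fold higher (adjusted p = 1.16e-10). Magea6 was at least 6.70-fold higher, with 3.59, 3.62 and 3.46 in R1. Among the ahES lines, AH129-N1 had the highest mean of both MAGE genes. 1700013H16Rik rose by 5.12 ± 0.29 and Efhc2, which encodes an EF-hand protein of cilia, by 4.44 ± 0.21, both on the X chromosome. Xlr4c, Gpr143 and Nxf2 complete the X-linked genes among the 12 largest rises, at least 7.71-, 7.57- and 4.18-fold higher, all near background in R1. Gpr143, a receptor of pigment cells, did not pass with 1 mean per line or without the offset, and differed by 4.599 without AH129-N1.

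The other 4 of the 12 largest rises were autosomal. Cd3d, part of the CD3 complex of T cells, ran from 9.80 to 11.0 in ahES with a median of 10.7, against 6.07, 5.03 and 4.53 in R1, and was at least 28.1-fold higher (adjusted p = 9.19e-05). Its neighbour on chromosome 9, Cd3g, which encodes a partner chain, was at least 7.77-fold higher. Of 9 tested markers of blood and immune cells these 2 passed (22.2%, against 3.98% of all genes) and 7 did not, with a median difference of 0.50. The mean level of these markers ran from 7.54 to 8.05 in ahES arrays and from 6.45 to 6.72 in R1 arrays, and the part of other cells in this was not tested. Ptprc, which marks all white blood cells, was not among the genes tested. Cox7b2, a testis form of a respiratory chain subunit, rose by 3.59 ± 0.39.

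Hoxa9, a homeobox factor of posterior patterning, ran from 8.31 to 10.9 in ahES with a median of 9.83, against 5.75, 6.07 and 6.06 in R1. It rose by 3.69 ± 0.58 (12.9-fold, adjusted p = 9.31e-04), by 4.82 in AH129-5, 3.85 in AH129-N1 and 2.39 in AH129-NC1. Hoxa10, its neighbour, was at least 8.41-fold higher and Hoxc9 rose by 2.71 ± 0.78. Of 33 Hox genes on the array 19 were tested, of which 3 were higher (15.8%, against 3.98% of all genes) and 16 did not pass. Of the 19, 18 had a positive difference (median 0.49), against 46.6% of all genes. The filter on low values was met by any 1 line, and 3 of the 4 lines were ahES. It may therefore favour positive differences among genes of low level. Cdx2, a caudal-type factor of the trophectoderm and posterior embryo, ran from 9.09 to 10.3 with a median of 9.70 in ahES, against 6.58, 6.17 and 6.60 in R1. It rose 9.76-fold (3.29 ± 0.31, adjusted p = 9.64e-07). With probe sets averaged, Hoxa9 differed by 2.44 and Hoxa10 by 1.81, and both passed. Hoxa9 did not pass with 1 mean per line (adjusted p = 0.264), and differed by 4.34 without AH129-NC1. The Hoxc9 call ended in 11 of 29 alternatives (adjusted p 2.8e-05 to 0.0907 over all of them), and its difference was 2.08 without R1 replicate 3.

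**Figure D1:**
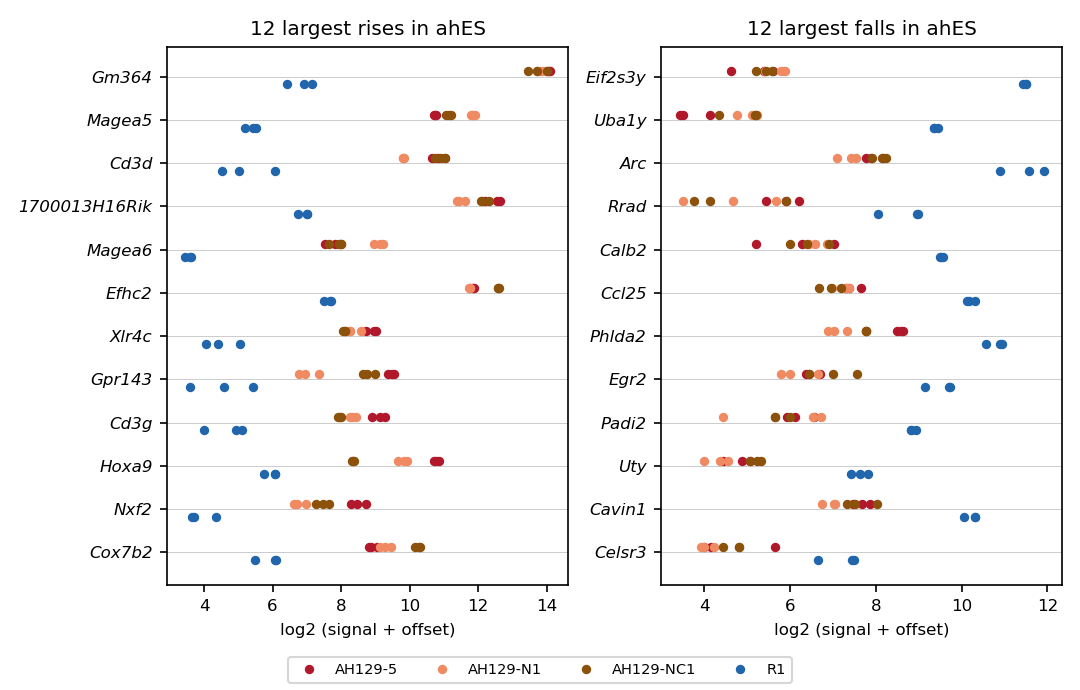
Log2 (signal + offset) of the 12 genes with the largest rises (left) and falls (right), 1 point per array, with ahES arrays above and R1 arrays below each line. Only genes whose ranges did not overlap were eligible, so all 9 ahES arrays lie on the same side of the 3 R1 arrays by selection.

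The largest falls were those of the Y-linked genes Eif2s3y and Uba1y. Eif2s3y, a translation initiation factor subunit expressed widely in male cells, ran from 4.63 to 5.88 in ahES with a median of 5.43, against 11.5, 11.5 and 11.4 in R1. It was at least 58.4-fold lower in ahES (adjusted p = 2.52e-08), and with its probe sets averaged the log2 difference was -3.09. Uba1y was at least 14.8-fold lower and Uty, an X-paired demethylase relative, at least 4.35-fold lower. Of 4 listed Y-linked genes tested, 3 were lower and Usp9y did not pass, and all 4 were near background in ahES. Kdm5d was on the array and did not pass the filter on low values. Uba1y ended as a call without the offset (adjusted p = 0.0637), and differed by -4.00 with its probe sets averaged.

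X-linked genes were higher in ahES as a body. Of 450 tested, 143 were higher (31.8%) and none was lower, whereas 209 of 12169 autosomal genes were higher (1.72%) and 147 lower (1.21%). By limma at an unadjusted p under 0.05, 314 X-linked genes were higher and 2 lower, against 1401 and 1281 of all 12671 genes tested. X-linked genes had a median of 0.86 and autosomal genes of -0.05, so the gap was 0.908 (1.88-fold). The gap was 0.873 for AH129-5, 0.929 for AH129-N1 and 0.878 for AH129-NC1. The quartiles of the X-linked differences ran from 0.50 to 1.21, against -0.31 to 0.22 for autosomal genes. In single arrays, the median X-linked level minus the median autosomal level lay between 0.569 and 0.705 in ahES and between -0.634 and -0.590 in R1. With the 4 lines as the units, the exact 2-sided permutation p was 0.25, and no smaller p is possible with 4 splits. Of the 143 genes, 105 rose less than 4-fold and 38 rose 4-fold or more.

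The X-linked shift ran along the whole chromosome. With the genes in chromosomal order and split into 5 sets of 90, the medians were 0.85, 1.11, 0.78, 0.77 and 0.85, and 29, 47, 20, 19 and 28 genes of a set passed. Rlim, the ubiquitin ligase that activates Xist, rose by 1.03 ± 0.20 and fell short of 2-fold with its probe sets averaged (0.80). It did not pass with 1 mean per line (adjusted p = 0.157). Of 12 tested genes on the X inactivation list, Rlim passed (8.33%, against 31.8% of all X-linked genes tested) and 11 did not (median 0.47). Xist, the RNA that silences an X chromosome in female cells, ran from 9.07 to 9.99 in ahES with a median of 9.31, against 10.1, 10.0 and 10.1 in R1. Its difference was -0.59 ± 0.27 and did not pass (adjusted p = 0.222), although all 9 ahES arrays lay below R1.

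Genes of chromosome 8 had a lower median in ahES than in R1. Of 671 tested, 27 were lower (4.02%) and 1 was higher (0.149%), and 82.3% had a difference below 0. The median difference was -0.39, against -0.03 for the other autosomes, a gap of -0.361 or 1.28-fold lower. No other autosome had a median beyond -0.09 or 0.03. At an unadjusted p under 0.05, 257 chromosome 8 genes were lower and 15 higher, against 1281 and 1401 of all 12671 genes tested. The medians were -0.35, -0.38 and -0.45 in AH129-5, AH129-N1 and AH129-NC1. Single arrays were also set against the R1 mean of each gene, relative to all autosomes. The ahES arrays then lay between -0.391 and -0.322. R1 arrays lay between -0.002 and 0.008, near 0 by construction. In 5 sets of 134 or 135 genes in chromosomal order the medians were -0.39, -0.44, -0.44, -0.40 and -0.34. Chromosome numbers of the lines were not measured on these arrays.

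Among the 12 largest falls, 3 lay on chromosome 8. Calb2, a calcium-binding protein, ran from 5.21 to 7.03 in ahES with a median of 6.44, against 9.56, 9.52 and 9.49 in R1, and fell by 3.11 ± 0.63 (8.63-fold, adjusted p = 0.00395). Ccl25, a chemokine, fell by 3.01 ± 0.31, and differed by -1.72 with its probe sets averaged. Rrad, a small GTPase, was at least 8.04-fold lower and its call ended in 10 of 29 alternatives. Without the genes of the X chromosome and of chromosome 8, 333 of the 504 genes remained.

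**Figure D2:**
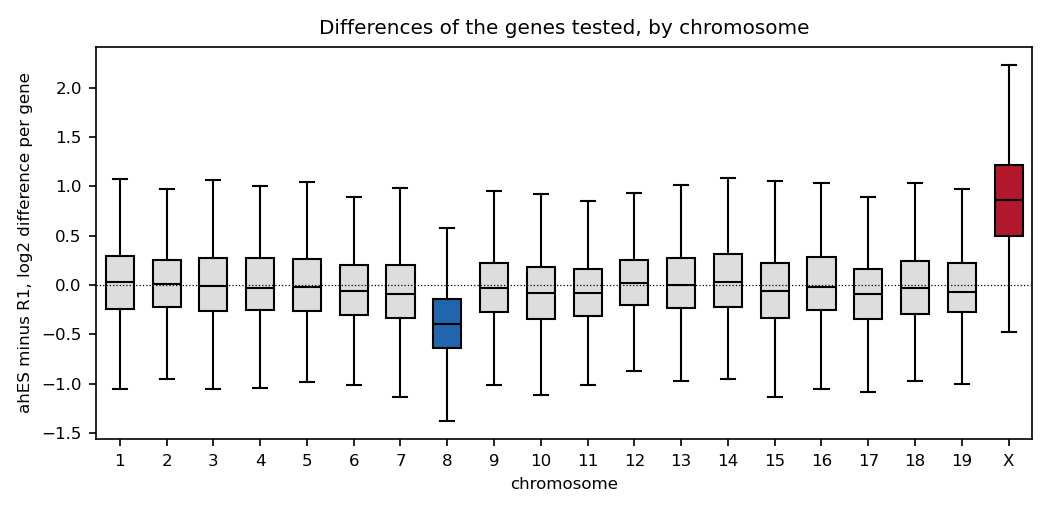
Log2 differences per gene, ahES minus R1, by chromosome. Boxes span the quartiles with the median as a line, whiskers reach at most 1.5 times the box, and points beyond are not drawn. The X chromosome (red) has a median of 0.86 and chromosome 8 (blue) of -0.39.

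**Figure D3:**
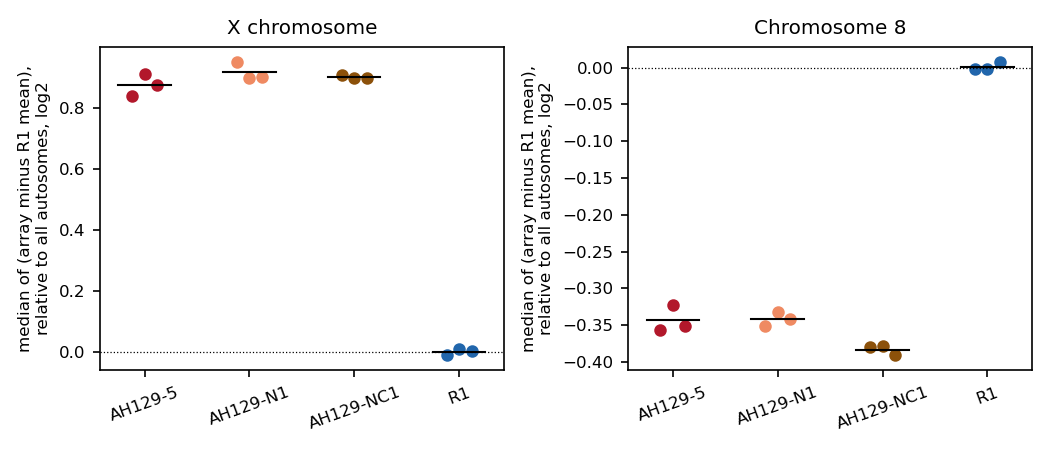
Median over genes of the log2 level in an array minus the R1 mean, for the X chromosome (left) and chromosome 8 (right), relative to the same median for all autosomes. Points are arrays and bars are line means. R1 lies at 0 by construction, and the ahES arrays of all 3 lines lie above it on the left and below it on the right.

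MAGE and Rhox genes, mostly X-linked and many of them expressed mainly in germ cells, placenta and tumours, were mostly higher in ahES. Of 15 tested, 11 were higher and 4 did not pass, with a median of 1.58. Of the 15, 14 are X-linked, including all 11 that were higher, so these genes are also in the count of the X chromosome. The share of the list that passed was 73.3%, against 31.8% higher of all X-linked genes tested and 3.98% of all genes. Magea4 rose by 3.58 ± 0.30. Rhox5, a homeobox gene of the reproductive tract, ran from 13.3 to 13.7 with a median of 13.5 in ahES, against 11.9, 11.9 and 11.9 in R1, and rose by 1.58 ± 0.12. Rhox9 and Rhox6, placental and germ cell homeobox genes, rose by 2.57 ± 0.36 and 2.21 ± 0.40. Rhox6 did not pass with 1 mean per line (adjusted p = 0.0785).

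Germline genes that are held silent by DNA methylation in somatic cells rose in part. Of 22 tested, 8 were higher (36.4%, against 3.98% of all genes) and 14 did not pass, with a median of 0.86. Among the 22, 5 were near background in R1 and none in ahES. The filter on low values, met by any 1 line, may favour positive differences here too. On the X chromosome 6 of 7 were higher, against 31.8% of all X-linked genes tested. Rhox5, Rhox6 and Rhox9, which passed, are also counted on the MAGE and Rhox list. Taf7l, a testis form of a TFIID subunit, rose by 2.08 ± 0.40 on the X chromosome. The autosomal members that passed were Slc25a31, a germ cell ADP/ATP carrier, at 1.75 ± 0.35, and Asz1, a piRNA pathway protein, at least 3.46-fold higher. Both are named here outside the rule. Promoters of germline genes often hold an E-box, the letters CACGTG, to which repressors of germline genes bind. The 250 bases before the first listed start were searched for it, and its complement reads the same on the other strand. It was found in 10 of 18 list members with a RefSeq promoter (55.6%), against 8.52% of the genes tested and 6.05% of 27025 promoters. Of the members that passed, 2 of 6 held it. These are Slc25a31 and Taf7l, shown with Sycp3, a meiotic chromosome protein with a difference of -0.60 that did not pass, so that promoters of genes with and without a call can be compared. Capitals mark the E-box, and sequences and positions are those of RefSeq on GRCm38.p6.

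Slc25a31, chr3:40708621-40708870, plus strand: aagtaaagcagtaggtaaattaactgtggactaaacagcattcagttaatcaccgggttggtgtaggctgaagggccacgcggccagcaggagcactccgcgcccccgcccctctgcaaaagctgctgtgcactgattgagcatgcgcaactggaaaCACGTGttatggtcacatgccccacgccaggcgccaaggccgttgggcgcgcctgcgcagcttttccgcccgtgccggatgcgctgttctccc
Taf7l, chrX:134476491-134476740, minus strand: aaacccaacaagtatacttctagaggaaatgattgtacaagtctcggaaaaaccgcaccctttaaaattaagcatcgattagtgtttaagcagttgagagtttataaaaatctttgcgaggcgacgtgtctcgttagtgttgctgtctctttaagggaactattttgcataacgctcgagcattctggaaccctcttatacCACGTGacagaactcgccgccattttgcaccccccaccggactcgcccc
Sycp3, chr10:88459337-88459586, plus strand: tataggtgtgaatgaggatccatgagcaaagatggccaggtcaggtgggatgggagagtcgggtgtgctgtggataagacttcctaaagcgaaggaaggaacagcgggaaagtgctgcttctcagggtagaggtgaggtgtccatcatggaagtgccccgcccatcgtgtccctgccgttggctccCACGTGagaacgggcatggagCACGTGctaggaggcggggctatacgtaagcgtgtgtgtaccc

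The E-box began 93 bases before the start in Slc25a31, 49 before it in Taf7l, and 64 and 43 before it in Sycp3. Sycp3 had a mean log2 level of 9.05 in ahES and 9.65 in R1, and Slc25a31 of 8.05 in ahES and 6.30 in R1.

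Immediate early genes are those that growth factor and ERK signals switch on within minutes. Of 32 genes on the early response list, 9 were lower in ahES, none was higher and 23 did not pass, with a median of -0.54 and 10 positive differences. At 28.1%, the share that passed stands beside 3.98% over all genes. Fos, a subunit of AP-1, ran from 10.6 to 11.2 in ahES with a median of 10.8, against 13.5, 13.5 and 13.0 in R1. It fell by 2.50 ± 0.23 (5.64-fold, adjusted p = 9.64e-07), with differences of -2.31 in AH129-5, -2.58 in AH129-N1 and -2.61 in AH129-NC1. Egr2, a zinc finger factor, ran from 5.78 to 7.55 with a median of 6.45 in ahES, against 9.73, 9.71 and 9.16 in R1, and fell by 2.98 ± 0.52. Zfp36, a destabiliser of mRNA, fell by 2.53 ± 0.31, and Egr1, a zinc finger factor, fell by 1.75 ± 0.21. Junb, an AP-1 subunit on chromosome 8, had a difference of -1.56 ± 0.25 and passed. Arc, a neuronal early gene that is not on the list, ran from 7.10 to 8.24 in ahES with a median of 7.90, against 11.9, 11.6 and 10.9 in R1, and fell by 3.67 ± 0.41. The other list members that passed, named outside the rule, were Ier2, Jun, Nr4a1 and Phlda1, with differences of -1.40, -1.10, -1.27 and -1.93. Fos, Egr1, Egr2, Zfp36, Junb and Arc passed in all 29 alternatives.

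Of 41 fibroblast and matrix markers, 6 were lower (14.6%, against 3.98% of all genes), none was higher and 35 did not pass, with a median of -0.48. The median was -0.21 in AH129-5, -0.84 in AH129-N1 and -0.52 in AH129-NC1. Cavin1, a coat protein of caveolae, ran from 6.75 to 8.03 in ahES with a median of 7.46, against 10.3, 10.3 and 10.1 in R1, and fell by 2.82 ± 0.35 (7.06-fold). Tagln and Acta2, smooth muscle cytoskeleton proteins, fell by 1.98 ± 0.40 and 1.75 ± 0.37, and Tpm2, a tropomyosin, by 1.37 ± 0.24. Named outside the rule, S100a4 and Cav1 had differences of -2.11 and -1.10. The list members Col1a1, Col1a2 and Vim, also named outside the rule, were at -0.13, -0.40 and -0.05 and did not pass. Positive differences were found in 7 of the 41, and in 23 the ranges did not overlap, against 27% of all genes tested. By limma at an unadjusted p under 0.05, 21 of the 41 were lower and 3 higher. Over all 12671 genes tested, 1281 were lower and 1401 higher at that p. The mean level of the list ran from 9.21 to 9.81 in ahES arrays and was 10.2 in each R1 array, and no gene of it was near background in ahES. The part of other cells in this result was not tested. As the mean over their probe sets, Cavin1 differed by -1.13 and Acta2 by -0.47 and neither passed, and Tagln, Tpm2 and Acta2 did not pass with 1 mean per line.

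**Figure D4:**
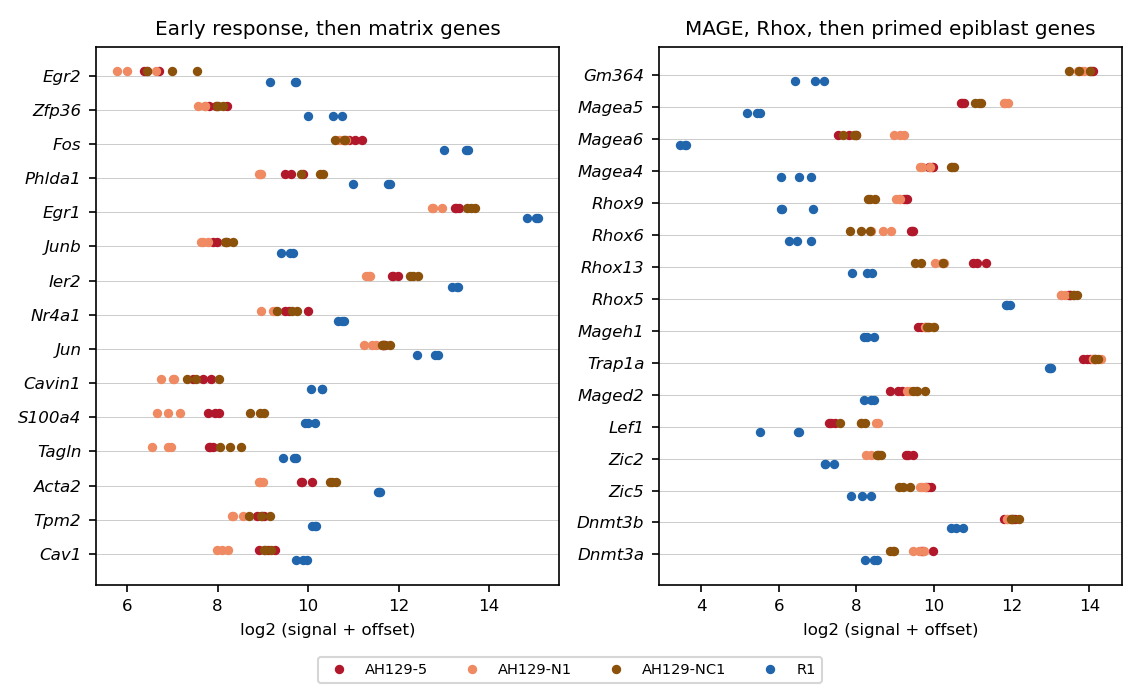
Log2 (signal + offset) per array for the members that passed of the early response and the fibroblast and matrix lists (left) and of the MAGE and Rhox and the primed epiblast lists (right), ahES arrays above and R1 arrays below each line. AH129-N1 has the lowest mean of the ahES lines in most genes on the left.

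SRF, a factor that drives early response and contractile genes, binds the CArG box. The same 250 bases were searched for this box, written as CC, then 6 letters of A or T, then GG. Its complement fits the same pattern, so both strands were covered. The box was found in 4 of 118 promoters of lower genes (3.39%), 6 of 275 promoters of higher genes (2.18%) and 1.40% of all promoters. The share among the genes tested was 1.135%. On the early response list it was found in 3 of 21 promoters, of which Zfp36 passed and Dusp5 and Srf did not, and 6 members that passed had a promoter. On the fibroblast and matrix list it was found in 1 of 27 promoters, and in 0 of 5 of the members that passed. Of the 4 lower genes, the 2 with the box nearer the start are shown, with the box 58 bases before it in Zfp36 and 56 in Cnn2, against 239 in Hook2 and 235 in Ldhc. Cnn2 is a calponin of the actin cytoskeleton that fell by 1.28 ± 0.24. Cnn2 was chosen after its values were seen. Capitals mark the CArG box.

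Zfp36, chr7:28379229-28379478, minus strand: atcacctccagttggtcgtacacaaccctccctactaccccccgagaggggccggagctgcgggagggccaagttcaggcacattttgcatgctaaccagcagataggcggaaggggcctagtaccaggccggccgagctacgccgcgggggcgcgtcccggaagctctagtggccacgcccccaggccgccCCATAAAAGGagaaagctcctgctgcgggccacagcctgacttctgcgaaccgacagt
Cnn2, chr10:79988350-79988599, plus strand: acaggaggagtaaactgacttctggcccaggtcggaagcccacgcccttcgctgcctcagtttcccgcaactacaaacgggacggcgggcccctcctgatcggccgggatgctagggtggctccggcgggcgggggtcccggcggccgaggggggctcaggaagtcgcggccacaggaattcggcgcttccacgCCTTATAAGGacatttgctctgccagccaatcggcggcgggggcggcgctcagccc

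Primed epiblast genes, which mark the step after naive pluripotency, split within their list. Of 13 tested, 5 were higher (38.5%, against 3.98% of all genes) and 8 did not pass, and the median was -0.0007. Dnmt3b, a de novo DNA methyltransferase, ran from 11.8 to 12.2 in ahES with a median of 11.98, against 10.6, 10.8 and 10.4 in R1, and rose by 1.39 ± 0.17 (2.62-fold, adjusted p = 1.27e-05). Dnmt3a, the other de novo enzyme, rose by 1.04 ± 0.27. The zinc finger factors Zic5 and Zic2 rose by 1.46 ± 0.25 and 1.51 ± 0.29, and Lef1, a nuclear partner of beta-catenin, by 1.73 ± 0.49. Dnmt3l, their cofactor, differed by 1.42 in AH129-5, -0.33 in AH129-N1 and 0.34 in AH129-NC1 and did not pass (0.48 ± 0.41). Of 17 genes for DNA methylation and its removal, Dnmt3a and Dnmt3b were higher (11.8%) and 15 did not pass, with a median of -0.08. Dnmt3a, Zic2, Zic5 and Lef1 did not pass with 1 mean per line.

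Of 18 naive pluripotency genes tested, Gbx2, a homeobox factor, rose by 1.38 ± 0.28 and 17 did not pass (median -0.02). The share that passed was 5.56%, against 3.98% of all genes. Before adjustment 3 were higher and 6 lower at p under 0.05, against 1401 and 1281 of all 12671 genes tested. In 8 of the 18 the ranges did not overlap, against 27% of all genes tested. Klf4 differed by -0.55 ± 0.14 and Zfp42 by -0.58 ± 0.16, below 2-fold but with adjusted p of 0.0136 and 0.0279, and in both all 9 ahES arrays lay below R1. Esrrb differed by -0.24 ± 0.14. In Nodal signalling, which shapes the early epiblast, the ligand and its inhibitors moved apart. Lefty1 and Lefty2, secreted inhibitors of Nodal, rose by 1.68 ± 0.30 and 1.07 ± 0.18. Nodal itself fell by 1.08 ± 0.26, and Id1 and Id3, targets of BMP signalling on the same list, fell by 1.46 ± 0.26 and 1.33 ± 0.33. Of 14 list members, 2 were higher, 3 lower and 9 did not pass (35.7% passed, against 3.98% of all genes, median -0.10). Nodal differed by -1.59, -1.15 and -0.48 in AH129-5, AH129-N1 and AH129-NC1, and Nodal, Id1, Id3, Lefty2 and Gbx2 did not pass with 1 mean per line.

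Of 17 trophoblast genes, Cdx2, Ascl2 and Fgfr2 were higher (17.6%, against 3.98% of all genes) and 14 did not pass, while 7 were higher and 1 lower at an unadjusted p under 0.05 (median 0.29, and 0.97 in AH129-5, 0.36 in AH129-N1 and -0.01 in AH129-NC1). Ascl2, a placental bHLH factor, was at least 2.44-fold higher, but was at 1.32 with its probe sets averaged, short of the threshold (adjusted p = 0.174). Fgfr2, a growth factor receptor, rose by 1.42 ± 0.36 but differed by 0.55 as the mean over its probe sets. Of 12 Wnt target and mesendoderm genes Cdx2 and Lef1 were higher (16.7%) and 10 did not pass (median 0.31). No primitive endoderm gene of 12, no neural progenitor gene of 8 and none of 5 genes on a list for the early cleavage stage (Arg2, Eif1a, Sp110, Usp17la and Zfp352) passed in limma. Their medians were 0.05, 0.23 and -0.28. At an unadjusted p under 0.05, 2, 1 and 0 of their genes were higher and 0, 0 and 1 lower. Over all 12671 genes tested, 1401 were higher and 1281 lower at that p.

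Imprinted genes were compared because ahES cells hold paternal chromosomes only. Of 21 paternally expressed genes, 5 were higher (23.8%, against 3.98% of all genes), none lower and 16 did not pass, with a median of 0.56 and 18 positive differences. Impact, a regulator of translation, ran from 13.1 to 13.2 in ahES with a median of 13.2, against 11.8, 11.8 and 11.8 in R1, and rose by 1.38 ± 0.10 (2.59-fold, adjusted p = 1.79e-08). Ndn, a growth suppressor, rose by 1.08 ± 0.15, Snhg14, the long RNA of the Snrpn region, by 1.03 ± 0.25, Peg3, a zinc finger protein, by 1.01 ± 0.28 and Sfmbt2, a polycomb protein, by 1.09 ± 0.32. Of 24 maternally expressed genes, Phlda2 was lower, Ascl2 higher and 22 did not pass (8.33% passed, median -0.18). Phlda2, a brake on placental growth, ran from 6.87 to 8.63 in ahES with a median of 7.77, against 10.9, 10.9 and 10.6 in R1, with a difference of -3.0002 ± 0.38 (adjusted p = 3.05e-05) that did not pass with 1 mean per line (adjusted p = 0.0505). Igf2 differed by -0.54 ± 0.33, Igf2r by 0.49 ± 0.21 and Meg3 by -0.15 ± 0.18, and none passed. With probe sets averaged, Impact differed by 0.48, and the calls of Impact, Ndn, Snhg14, Peg3, Sfmbt2 and Ascl2 ended. The Sfmbt2 call ended in 17 and the Peg3 call in 11 of 29 alternatives.

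Among the lists for metabolism and stress, the largest change was that of Epas1. Epas1, the hypoxia-inducible factor HIF2A, ran from 7.32 to 9.56 in ahES with a median of 8.51, against 11.1, 11.1 and 11.0 in R1. It fell by 2.53 ± 0.45 (5.78-fold, adjusted p = 0.00191), with differences of -3.501 in AH129-5, -2.52 in AH129-N1 and -1.57 in AH129-NC1. Bnip3, a mitophagy receptor, rose by 1.77 ± 0.36 and Pfkfb3, which sets the pace of glycolysis, by 1.58 ± 0.37. Thus, of 29 glycolysis and hypoxia genes 2 were higher, 1 lower and 26 did not pass (10.3% passed, against 3.98% of all genes, median 0.13). Of 29 genes of serine synthesis and the integrated stress response, 3 were higher (10.3%) and 26 did not pass (median 0.34). Chac1, which degrades glutathione, rose by 2.17 ± 0.35, Stc2, a secreted glycoprotein, by 2.21 ± 0.40 and Slc7a3, an X-linked arginine transporter, by 1.05 ± 0.11. Ebp, an X-linked sterol isomerase, rose by 1.71 ± 0.12 and Fdft1, squalene synthase, fell by 1.10 ± 0.28. The other 18 of 20 cholesterol synthesis genes did not pass (10.0% of the list passed, median -0.41). Among 27 p53 targets, Pmaip1, which promotes apoptosis, rose by 2.00 ± 0.36 and 26 did not pass (3.70% passed, near the share of all genes). The median of that list was -1.22 in AH129-5, -0.22 in AH129-N1 and 0.20 in AH129-NC1, a difference between lines that was not tested. Epas1, Bnip3, Pfkfb3, Chac1, Stc2, Pmaip1 and Fdft1 did not pass with 1 mean per line, and Pfkfb3 (0.76) and Fdft1 (-0.57) did not as the mean over their probe sets. Stc2 differed by 1.57 in that setting and passed.

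Interferon-responsive and antigen presentation genes gave 3 lower (9.09%, against 3.98% of all genes passing), none higher and 30 not passing of 33. The list median was -0.33, at -0.18 in AH129-5, -0.79 in AH129-N1 and 0.04 in AH129-NC1. Isg20, an exonuclease, fell by 1.32 ± 0.37, Ifi35 by 1.11 ± 0.26 and Psmb10, an immunoproteasome subunit, by 1.00 ± 0.28, and Psmb10 lost its call in 13 of 29 alternatives. None of the 3 passed with 1 mean per line (adjusted p = 0.174 for Isg20, 0.172 for Ifi35 and 0.154 for Psmb10). Ifi35 differed by -0.83 with its probe sets averaged and by -0.50 without probe sets that may match several transcripts, and passed in neither. The remaining falls among the 12 largest were Padi2, a protein deiminase, at -2.91 ± 0.81, and Celsr3, a cadherin of planar polarity, at least 3.20-fold lower. The Padi2 call ended in 6 of 29 and the Celsr3 call in 5 of 28 alternatives, with an adjusted p of 0.0779 and 0.115 without the offset. No gene of the S phase list (38 tested) or the G2 and M list (39 tested) passed in limma, with medians of -0.27 and -0.19 and with 7 positive differences in each. At an unadjusted p under 0.05, 10 genes of each list were lower, and 0 of the S phase and 1 of the G2 and M genes were higher. Over all 12671 genes tested, 1281 were lower and 1401 higher at that p. The S phase median was -0.24 in AH129-5, -0.09 in AH129-N1 and -0.29 in AH129-NC1, and the G2 and M median -0.26, -0.08 and -0.27. The G0/G1 sort was stated for ahES alone, so the sort and the cell type cannot be told apart in these lists.

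**Figure D5:**
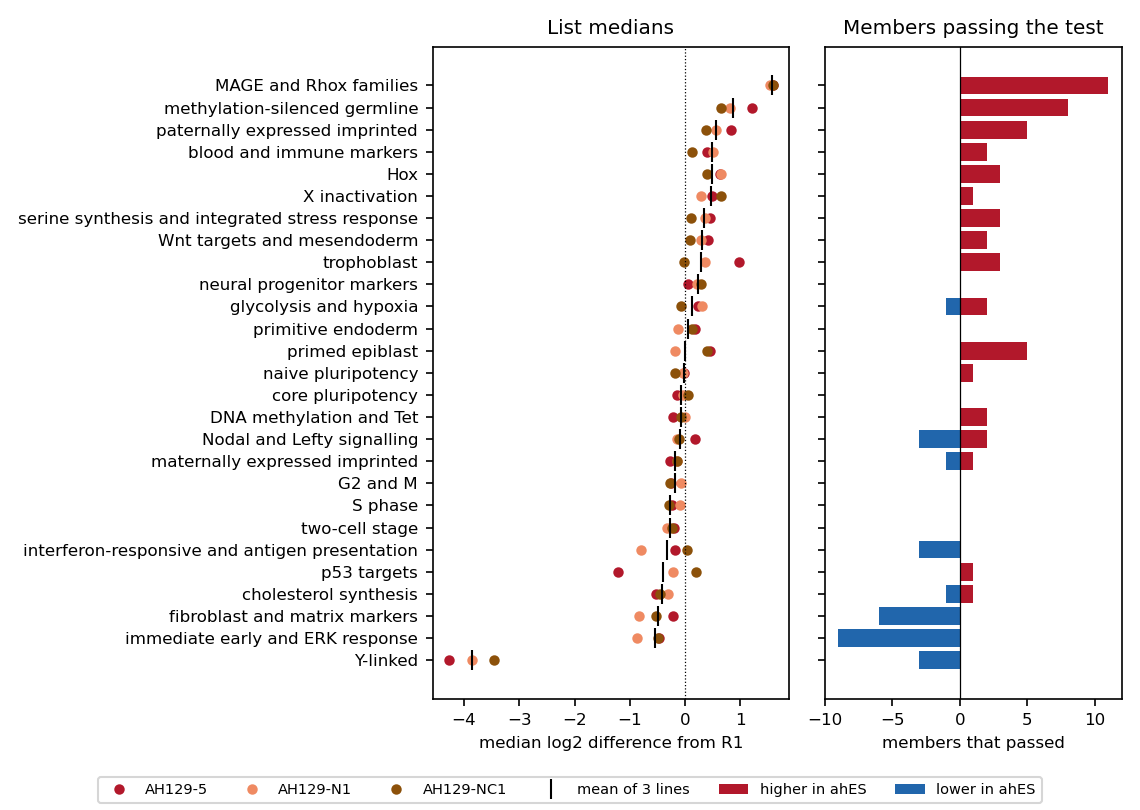
Median log2 difference from R1 over the tested members of 27 gene lists (left), for each ahES line and for the 3 lines together, and the number of members that passed (right, higher drawn to the right and lower to the left). The MAGE and Rhox list has the highest median at 1.58 and the Y-linked list the lowest at -3.86.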

How the data were processed

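RNA was measured on 21 Affymetrix arrays, of which 12 were used here. The deposited values were log2 MAS5 signals, MAS5 being named without a version in the submitters' processing notes. Base 2 was inferred because, on that base, the 2% trimmed mean signal is 500.003 to 500.004 on all arrays. No detection calls were used, and the number of arrays limits the precision.

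Of 45101 probe sets, 34945 carried 1 gene symbol in the platform annotation, 932 several and 9160 none, and 64 were controls. Of the 34945, 34741 were found in RefSeq (GRCm38.p6), which gave chromosomes and gene order. For each of 18193 genes the brightest probe set, averaged across the 21 arrays, was kept. An offset of 9.70 signal units, the median 20th percentile, was added before log2. Testing required a line in which the gene exceeded the array's 40th percentile 3 times out of 3.

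Differences were tested, 2-sided, with limma 3.58.1 under R 4.3.3 (statmod 1.5.0 for the block), using trended, robust variance moderation and the line as a random block (consensus correlation 0.610). That 1 correlation serves all genes, so p-values are too small for genes whose lines differ more. Adjusted p are Benjamini-Hochberg values over all 12671 genes. Single lines were compared with R1 without a block, by the spread between arrays. The block fit was run on simulated data in which all genes had the same line correlation. It recovered 68% of genes set to a log2 change of 1.5 and 94% of those set to 4. False calls were 6.70% of all calls. Genes whose lines differ more were not simulated, so this says nothing of them. Lists are described by counts and medians, with no set test.

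Genes were named by rule: the 12 largest rises and falls with ranges that did not overlap, up to 4 passing members of a list by adjusted p (all, where 5 or fewer passed), and a set of key genes. The members, lists and key genes were chosen with earlier results of these data known. Where the lower side lay near background, its folds are lower bounds based on the 40th percentile. Arrays with the same replicate number did not deviate together (correlations of -0.04 to 0.03), so the numbers were not used as pairs.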

Additional observations from a re-analysis of the deposited data

Results flagged for a closer look

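Of 83 sets of 9 ahES values examined, the values of 81 named genes and 2 chromosome measures, 1 had an array far from the others. The limit used is one that chance passes in about 1 in 20 sets of independent values. These 9 values are 3 arrays from each of 3 lines, so that rate does not hold exactly here. The set was that of Padi2, whose log2 level in AH129-N1 replicate 1 was 4.44, against 5.64 in the next lowest ahES array and a median of 6.001. Without that array Padi2 still passed.

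For 2 named genes, all arrays of some ahES lines lay above all R1 arrays and all arrays of other lines lay below them. Nanog differed from R1 by 0.0672 in AH129-N1, by -0.162 in AH129-5 and by -0.0836 in AH129-NC1. The adjusted p in limma were 0.365, 0.0258 and 0.256 in that order. Its lowest AH129-N1 array was at 13.8073, against 13.8033 in the highest R1 array, so that separation is slight. Dnmt3l differed by 1.42 in AH129-5 and 0.34 in AH129-NC1, and by -0.33 in AH129-N1. The differences between lines were not tested.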

How the results depend on the processing

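The count of 504 genes depended on how the spread was estimated: 996 passed without the block for the line and 215 with 1 mean per line. Of the list members, 72 passed, and 30 did with 1 mean per line. It was 333 without the genes of the X chromosome and of chromosome 8, a setting chosen after seeing the data. In the other settings it ran from 433 (filter at the 60th percentile) to 655 (without AH129-5), and from 471 to 515 without any 1 array. With 4 times the offset, 796 genes passed for AH129-N1 and 674 for AH129-NC1. The gap between X-linked and autosomal genes was 0.842 with 4 times the offset, 0.698 with no filter, 0.974 with the filter at the 60th percentile and 0.828 as the mean over probe sets. The gap of chromosome 8, added after seeing the data, ran from -0.376 to -0.284. With the replicate number as a block, 472 genes passed in all, and 1410, 1217 and 1059 for AH129-5, AH129-N1 and AH129-NC1, and this ended the named calls of Rrad, Celsr3, Peg3 and Sfmbt2. No named gene that passed changed direction in the 29 alternatives. Of 70 named calls, 32 ended with 1 mean per line and 13 as the mean over probe sets. Low signals limit the size of folds near background. Without AH129-5, 8 named genes fell short of 2-fold: Dnmt3a (0.86), Lefty2 (0.95), Nodal (-0.82), Snhg14 (0.87), Peg3 (0.69), Sfmbt2 (0.77), Rlim (0.83) and Fdft1 (-0.76). Without AH129-N1 the calls of Dnmt3a (0.96), Ifi35 (-0.87) and Sfmbt2 (adjusted p = 0.111) ended, and without AH129-NC1 those of Lefty2 (0.97), Snhg14 (0.98), Psmb10 (-0.88) and Padi2 (adjusted p = 0.0535). Leaving out 1 array ended the call of Sfmbt2 for 11 of the 12 arrays (adjusted p 0.0513 to 0.0812 in limma), of Hoxc9 for 8, of Rrad and Psmb10 for 6 each, of Peg3 for 5, of Celsr3 for 3, of Padi2, Isg20 and Snhg14 for 2 each and of Dnmt3a for 1. Differences of genes near background depend on the offset: Magea6 differed by 7.23 without it and by 3.04 with 4 times the offset, Celsr3 by -3.62 and -1.77.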

Other observations

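The genes H2-Eb1, H2-Ab1 and Cd74 were chosen after their values were seen. H2-Eb1, a beta chain that presents peptides to helper T cells, had a mean log2 level of 9.83 ± 0.65 in ahES (SD, n = 9) and 6.50 ± 0.36 in R1 (n = 3), a difference of 3.33 ± 0.40. H2-Ab1, another beta chain, was at least 1.93-fold higher in ahES, with R1 near background. Cd74, the invariant chain that accompanies class II molecules, differed by -0.40 ± 0.52 and did not pass.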
